A study of Homo sapiens with 12 samples.

Results

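The transcripts described here are 10 genes that mark or drive the epithelial-mesenchymal transition, together with the transglutaminase TGM2, chosen by symbol from a table of 25365 gene names. They are the epithelial adhesion genes CDH1 and EPCAM, the mesenchymal genes CDH2, VIM, FN1 and CD44, the transcription factors ZEB1, SNAI1 and SNAI2, and TGM2. The rule uses names and no threshold on these values, and all 10 were found. The genes were, however, chosen with earlier results of these data known. RNA-seq was made from A549 cells, an established human lung adenocarcinoma line, in 12 libraries that fall into 4 groups of 3. The groups are wild type (WT) with DMSO vehicle, PARP3-/- with vehicle, WT with pyridostatin, and PARP3-/- with pyridostatin, and pyridostatin was given at 1 μM for 24 h before RNA was isolated. PARP3 is a poly(ADP-ribose) polymerase that acts in DNA repair, and pyridostatin is a small molecule that binds and stabilises G-quadruplex (G4) DNA. The PARP3-/- line was made with Cas9 and a pair of guides and cloned by serial dilution, so that an effect of PARP3 loss and a property of this clone cannot be told apart.

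In an epithelial cell, E-cadherin (the product of CDH1) ties neighbouring cells together at adherens junctions, and EpCAM is a second surface adhesion protein. During the epithelial-mesenchymal transition, transcription factors of the SNAI and ZEB families bind E-box sequences in the CDH1 promoter and repress it. The cell then makes more N-cadherin (CDH2), the intermediate filament protein vimentin (VIM) and fibronectin (FN1), a matrix glycoprotein. A549 cells hold both kinds of transcript in culture. TGM2 encodes transglutaminase 2, which cross-links proteins and also serves as a partner of integrins in binding fibronectin. PARP3 has been reported to promote this transition through TGM2 and SNAI1. The comparison asks how these transcripts stand in cells that carry a PARP3 deletion.

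The values are FPKM (fragments divided by transcript length and by the mapped fragments of the library), which allow levels of different genes to be compared per length. The depth is not given, but steps between low values put it at about 22 to 31 M reads per library. The targeted gene was not lower in the libraries labelled PARP3-/-. PARP3 was at 3.83, 3.40 and 3.96 FPKM in WT with vehicle and at 4.92, 4.07 and 4.25 in the libraries labelled PARP3-/- with vehicle. With pyridostatin it was at 3.74, 3.57 and 4.05 in WT and at 4.73, 4.71 and 4.30 in the other genotype. The 6 libraries labelled PARP3-/- were all above the 6 WT libraries (log2 difference 0.21, SE 0.05, adjusted p = 0.0154, limma). The transcript level alone does not show whether the deletion is present. For its PARP3-/- A549 cells, the paper gives a Sanger sequencing trace of the deletion, which lies in the first exon. It also gives immunoblots from experiments in which PARP3 was expressed again in these cells. Of the 6 epithelial markers, KRT7, KRT8 and KRT18 were at 1504 FPKM or more in every library. The others were lower, with KRT19 at 83.3 to 169 FPKM, CDH1 at 9.85 to 16.7 and EPCAM at 0.879 to 2.36. CDKN2A and CDKN2B, which A549 cells lack, were at 0 throughout. The surfactant genes SFTPA1, SFTPA2, SFTPB and SFTPC, used here as markers of alveolar type II cells, were at or near 0. Of the other markers of that cell type, NKX2-1 was at 0.0995 FPKM or less, LAMP3 at 0.156 to 0.270 and ABCA3 at 7.99 to 11.1. The summed level of the 7 markers was 8.26 to 9.45 FPKM in WT and 10.2 to 11.4 in the libraries labelled PARP3-/-, and its part in the results was not tested. WT vehicle replicate 2 stood apart by transcript length. Against the other 2 libraries of its group, the median log2 difference of its 1237 genes with transcripts of 6 kb or more was -0.22, and that of its 938 genes with transcripts of 1.5 kb or less was 0.25. The main results that changed their call without this library are given with and without it.

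Promoter sequences are shown because pyridostatin acts on G4 DNA and because 5 of the 10 genes (FN1, VIM, ZEB1, CD44 and CDH2) have an entry in the RefSeq promoter table (build GRCh38.p14), 12 starts in all. The 250 bases before each start were searched on both strands for a G4 motif, defined as at least 4 runs of 3 or more G with 1 to 7 bases between runs. The motif was present in 4 of the 12 sequences, against 23.5% of the 35116 promoters in the table. The 3 sequences printed are the starts of called mesenchymal genes that hold it, with each motif in capitals and runs of C marking the motif on the opposite strand.
CDH2, chr18:28177131-28177380, minus strand: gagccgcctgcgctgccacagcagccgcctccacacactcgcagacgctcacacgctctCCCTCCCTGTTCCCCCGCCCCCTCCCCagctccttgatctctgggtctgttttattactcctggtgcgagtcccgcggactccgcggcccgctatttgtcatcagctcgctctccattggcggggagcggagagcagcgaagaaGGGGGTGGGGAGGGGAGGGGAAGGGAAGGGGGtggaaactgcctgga
CD44, chr11:35138921-35139170, plus strand: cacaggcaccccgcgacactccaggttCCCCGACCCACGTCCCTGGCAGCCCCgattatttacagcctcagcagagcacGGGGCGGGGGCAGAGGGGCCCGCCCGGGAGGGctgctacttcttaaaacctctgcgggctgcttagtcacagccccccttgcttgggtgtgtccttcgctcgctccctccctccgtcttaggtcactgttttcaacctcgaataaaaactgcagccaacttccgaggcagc
FN1, chr2:215436069-215436318, minus strand: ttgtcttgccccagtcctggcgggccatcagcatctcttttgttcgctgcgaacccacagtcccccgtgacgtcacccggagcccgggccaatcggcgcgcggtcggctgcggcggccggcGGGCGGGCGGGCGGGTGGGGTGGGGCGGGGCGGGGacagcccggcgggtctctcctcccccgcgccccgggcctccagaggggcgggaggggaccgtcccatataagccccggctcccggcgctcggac
CDH2 and CD44 each hold 2 such stretches, 1 on each strand, and FN1 holds 1. The other start of CDH2 and the single start of VIM hold none, and 1 of the 7 starts of ZEB1 does. The E2-box letters CACCTG or CAGGTG, which SNAI and ZEB proteins recognise, were found in 2 of the 7 ZEB1 sequences and in none of the other 5 sequences, against 17.5% of all promoters. A match of letters is a description and not a binding site.

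CDH1 and EPCAM were lower in the libraries labelled PARP3-/- and CDH2, VIM, CD44 and TGM2 were higher, with vehicle and with pyridostatin alike. The test was limma on log2(FPKM + 1), fitted to the 4 groups jointly, with p-values adjusted over the 11881 genes above a mean of 1 FPKM. By it, 6 of the 9 tested genes were called at an adjusted p under 0.05 with vehicle (4 higher and 2 lower). With pyridostatin, the same 6 genes were called, again 4 higher and 2 lower. In the genotype difference averaged over both treatments, 7 of the 9 were called, 5 higher and 2 lower, the added gene being FN1. SNAI2 was below that filter and was not tested in this fit. Of all genes tested, 9.41% were called with vehicle (6.40% higher and 3.01% lower), 10.9% with pyridostatin (7.07% higher and 3.85% lower) and 19.1% in the averaged difference (12.2% higher and 6.95% lower). These counts over all genes moved with single libraries. Of 1118 genes with vehicle, 1297 with pyridostatin and 2275 in the average, 741, 805 and 1764 were the fewest on leaving out 1 library (PARP3-/- vehicle replicate 2, WT pyridostatin replicate 3 and PARP3-/- vehicle replicate 2). The most were 1657, 2294 and 3229, each without WT vehicle replicate 2. The direction of these counts over all genes depended on scaling. The averaged difference had 1449 higher and 826 lower genes as deposited, and 1055 higher and 1253 lower genes after each library was shifted to the same median. The 4 higher and 2 lower genes named above kept their direction and their call under that shift, in each of the 3 genotype comparisons. None of the 9 passed the study's second threshold, an absolute log2 fold change above 1, which 0.362% of all genes passed with vehicle, 0.396% with pyridostatin and 0.396% in the average. The study applied it to fold changes from DESeq2, while log2(FPKM + 1) understates the change of low genes, so the measures are not alike.

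**Figure D1:**
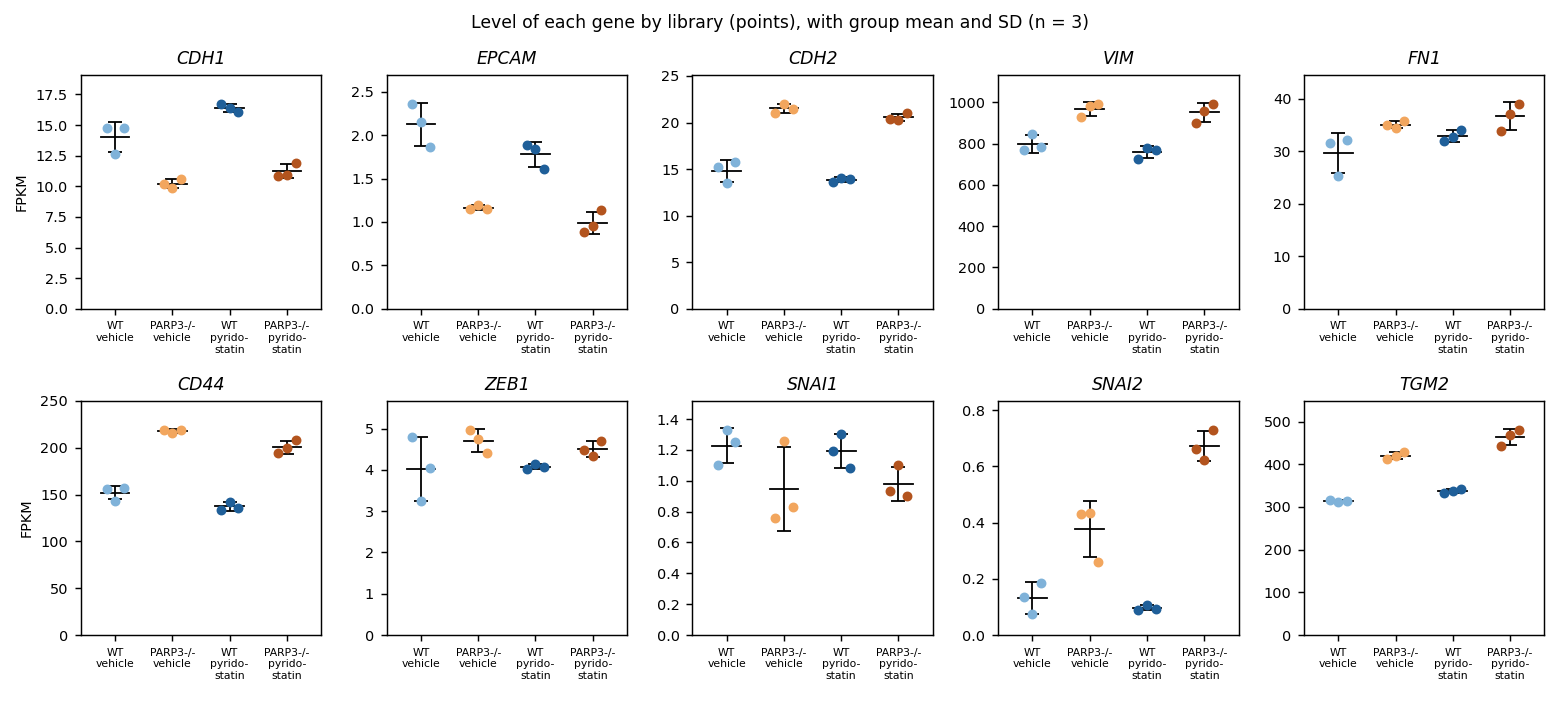
FPKM of the 10 genes in each of the 12 libraries (points, each axis starting at 0), with the mean and SD of the 3 libraries of a group (black). CDH1 and EPCAM sit lower, and CDH2, VIM, CD44, SNAI2 and TGM2 higher, in all 6 libraries labelled PARP3-/- than in all 6 WT libraries, while FN1, ZEB1 and SNAI1 overlap.

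CDH1 was at 14.8, 12.6 and 14.7 FPKM in WT with vehicle and at 10.2, 9.85 and 10.6 in the libraries labelled PARP3-/- with vehicle. With pyridostatin, CDH1 was at 16.7, 16.4 and 16.1 in WT and at 10.9, 10.9 and 11.9 in the libraries labelled PARP3-/-. The lowest WT library, replicate 2 with vehicle, was still above the highest library of the other genotype. CDH1 fell by 0.42 on the log2 scale with vehicle (SE 0.06, adjusted p = 0.00117) and fell by 0.51 with pyridostatin (SE 0.06, adjusted p = 2.98e-04). On the linear scale, the mean dropped by 27.3% with vehicle and dropped by 31.6% with pyridostatin.

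EPCAM was a low transcript, with about 39 to 100 reads per library. It was at 2.36, 2.15 and 1.86 FPKM in WT with vehicle and at 1.15, 1.20 and 1.15 in the libraries labelled PARP3-/-. With pyridostatin it was at 1.88, 1.83 and 1.61 in WT and at 0.879, 0.950 and 1.13 in the libraries labelled PARP3-/-. The genotypes did not overlap in either treatment. EPCAM fell by 45.2% with vehicle and fell by 44.4% with pyridostatin in mean FPKM. On log2(FPKM + 1), which understates the change of a gene at this level, it fell by 0.53 (SE 0.08, adjusted p = 0.00126) and fell by 0.48 (SE 0.08, adjusted p = 0.00206). With a pseudocount of 0.1 the log2 differences were -0.81 and -0.79.

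CDH2 was at 15.2, 13.5 and 15.7 FPKM in WT with vehicle and at 21.0, 22.0 and 21.5 in the libraries labelled PARP3-/-. With pyridostatin, CDH2 was at 13.6, 14.1 and 13.9 in WT and at 20.4, 20.3 and 21.0 in the libraries labelled PARP3-/-. Every library labelled PARP3-/- was above every WT library by more than the spread within any group. The log2 fold change was 0.51 with vehicle (SE 0.05, adjusted p = 6.42e-05) and 0.54 with pyridostatin (SE 0.05, adjusted p = 4.91e-05), or 1.45-fold and 1.48-fold in mean FPKM.

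The cadherins therefore moved in opposite directions in the same libraries. The ratio of CDH2 to CDH1 FPKM was 1.05 ± 0.02 (SD, n = 3) in WT with vehicle and 2.11 ± 0.11 in the libraries labelled PARP3-/- with vehicle. With pyridostatin the ratio was 0.845 ± 0.028 in WT and 1.83 ± 0.06 in the libraries labelled PARP3-/-. The 6 WT libraries ranged up to 1.07 and the 6 others from 1.76, so that CDH1 and CDH2 were at similar levels in the first and CDH2 was the more abundant in the second.

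**Figure D2:**
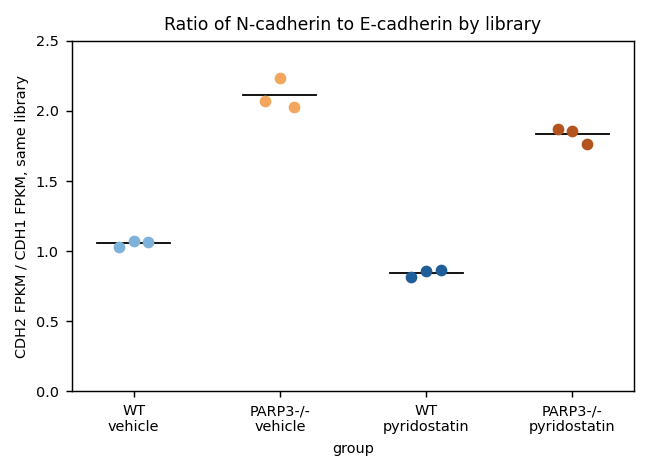
Ratio of CDH2 to CDH1 FPKM within each library (points), with the group mean (bar), on an axis from 0. The 3 libraries of each group lie close together, and the libraries labelled PARP3-/- (1.76 or more) sit apart from WT (1.07 or less).

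VIM was the most abundant of the 10 transcripts, at rank 100 of the 25365 names in WT with vehicle. It was at 768, 848 and 782 FPKM in WT with vehicle and at 929, 984 and 990 in the libraries labelled PARP3-/-. With pyridostatin it was at 725, 780 and 770 in WT and at 901, 960 and 993 in the libraries labelled PARP3-/-. The genotypes did not overlap, although the difference was smaller than that of CDH2. VIM rose by a log2 fold change of 0.28 with vehicle (SE 0.06, adjusted p = 0.00937) and 0.33 with pyridostatin (SE 0.06, adjusted p = 0.00335). With only the 6 vehicle libraries in the model, the adjusted p with vehicle was 0.0879.

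CD44, the surface receptor for hyaluronan, was at 156, 144 and 157 FPKM in WT with vehicle and at 219, 216 and 219 in the libraries labelled PARP3-/-. With pyridostatin, CD44 was at 134, 143 and 136 in WT and at 194, 199 and 208 in the libraries labelled PARP3-/-. The lowest library labelled PARP3-/- was well above the highest WT library. The log2 fold change was 0.52 with vehicle (SE 0.04, adjusted p = 2.82e-05) and 0.54 with pyridostatin (SE 0.04, adjusted p = 1.98e-05).

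FN1 gave a weaker result. It was at 31.5, 25.4 and 32.2 FPKM in WT with vehicle and at 35.1, 34.5 and 35.7 in the libraries labelled PARP3-/-. With pyridostatin, FN1 was at 31.9, 32.7 and 34.1 in WT and at 33.9, 37.2 and 39.1 in the libraries labelled PARP3-/-, where the genotypes overlapped. The lowest value is that of WT vehicle replicate 2, the library in which long transcripts were low, and the FN1 transcript is 8.91 kb long. FN1 passed in neither treatment alone (log2 fold change 0.24, adjusted p = 0.0989, and 0.15, adjusted p = 0.291). It passed only in the average, at 0.20 (SE 0.06, adjusted p = 0.0352), and at 0.14 (adjusted p = 0.0150) without that library. The call was lost when any 1 of 8 other libraries was left out, with adjusted p-values up to 0.0855. It was also lost after the median shift (adjusted p = 0.0509) and without the filter (adjusted p = 0.0512).

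**Figure D3:**
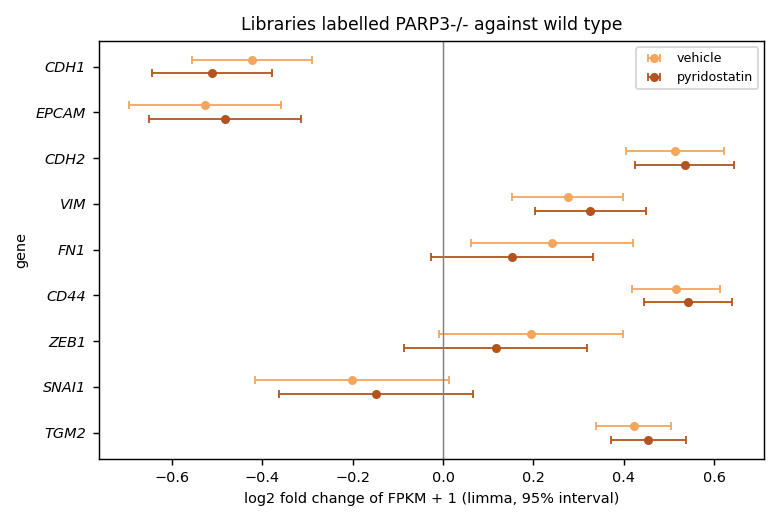
Log2 fold change of FPKM + 1 (limma, with 95% intervals) between the libraries labelled PARP3-/- and WT for the 9 tested genes, with vehicle and with pyridostatin. CDH1 and EPCAM lie left of 0 and CDH2, VIM, CD44 and TGM2 right of 0 in both treatments, and for each gene the intervals of the treatments overlap.

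The transcription factors were low. ZEB1 was at 4.80, 3.25 and 4.03 FPKM in WT with vehicle and at 4.96, 4.75 and 4.42 in the libraries labelled PARP3-/-. With pyridostatin, ZEB1 was at 4.03, 4.14 and 4.06 in WT and at 4.49, 4.32 and 4.70 in the libraries labelled PARP3-/-. The genotypes overlapped with vehicle but not with pyridostatin. The averaged log2 difference was 0.16 (95% interval 0.01 to 0.30, adjusted p = 0.129). It was 0.10 (adjusted p = 0.127) without WT vehicle replicate 2, which held the lowest value, and 0.21 (adjusted p = 0.0164) without WT vehicle replicate 1, which held the highest of WT.

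SNAI1, which encodes Snail and is known as a repressor of CDH1, was at 1.10, 1.33 and 1.25 FPKM in WT with vehicle and at 0.757, 1.26 and 0.827 in the libraries labelled PARP3-/-. With pyridostatin, SNAI1 was at 1.19, 1.30 and 1.08 in WT and at 0.933, 1.10 and 0.900 in the libraries labelled PARP3-/-. The genotypes overlapped in both treatments, with about 31 to 69 reads per library. The averaged log2 difference was -0.18 (95% interval -0.33 to -0.02) and did not pass after adjustment (adjusted p = 0.107). Without PARP3-/- vehicle replicate 2 it was -0.23 (adjusted p = 0.0186).

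SNAI2, which encodes Slug, was the lowest of the 10 genes and the one with the largest ratio between genotypes. It was at 0.135, 0.0735 and 0.185 FPKM in WT with vehicle and at 0.431, 0.435 and 0.261 in the libraries labelled PARP3-/-. With pyridostatin, SNAI2 was at 0.0902, 0.107 and 0.0928 in WT and at 0.662, 0.623 and 0.729 in the libraries labelled PARP3-/-. All 6 libraries labelled PARP3-/- were above all 6 WT libraries. The means differed 2.86-fold with vehicle and 6.93-fold with pyridostatin. An exact two-sided permutation test of genotype within each treatment gave p = 0.005, the smallest it can give, while 3 libraries against 3 cannot go below 0.1. Without the filter, limma called SNAI2 with vehicle (log2 difference of FPKM + 1 of 0.28, adjusted p = 0.00976), with pyridostatin (0.61, adjusted p = 8.7e-05) and in the average (0.44, adjusted p = 3.3e-05). These values rest on about 4.6 to 10 reads in WT with vehicle, 5.8 to 8.1 in WT with pyridostatin, and 14 to 30 and 38 to 44 in the libraries labelled PARP3-/-.

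Of the 10 genes, 7 (6 of the 9 tested) showed no overlap between the 6 libraries labelled PARP3-/- and the 6 WT libraries, against 9.67% of all genes tested. In these bulk RNA samples, a change in the share of cells that express a gene and a change in the RNA per cell cannot be told apart.

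TGM2 was at rank 233 of the 25365 names in WT with vehicle. It was at 315, 311 and 314 FPKM in WT with vehicle and at 412, 420 and 428 in the libraries labelled PARP3-/-. With pyridostatin, TGM2 was at 333, 338 and 342 in WT and at 443, 467 and 480 in the libraries labelled PARP3-/-. The 4 groups did not overlap, and the order was WT vehicle, WT pyridostatin, PARP3-/- vehicle and PARP3-/- pyridostatin. The genotype log2 fold change was 0.42 with vehicle (SE 0.04, adjusted p = 3.53e-05) and 0.45 with pyridostatin (SE 0.04, adjusted p = 2.16e-05), or 1.34-fold and 1.37-fold in mean FPKM. The 9 other genes of the transglutaminase list, among them TGM1, TGM3, the clotting factor gene F13A1 and F13B, which encodes the non-catalytic partner of the F13A1 product, were below the filter, and the highest of them was TGM1 at 0.246 ± 0.083 FPKM (SD, n = 3) in WT with vehicle.

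Across the 12 libraries, the tested genes whose log2 levels followed TGM2 most closely included ITGA5 (Pearson r = 0.995) and the complement gene C3 (r = 0.992). ITGA5, the alpha subunit of the main fibronectin receptor, was at 11.9 and 15.6 FPKM with vehicle and at 12.6 and 17.4 with pyridostatin in WT and in the libraries labelled PARP3-/-. The genes closest to CDH1 were RBM20 (r = 0.987), DAPK1 (r = 0.986) and SYNPO2 (r = 0.980). For SNAI1, whose levels overlapped between genotypes, the closest gene, LURAP1L, reached r = 0.905. These coefficients are descriptions over 12 libraries that share 4 group means.

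Pyridostatin moved these genes less than genotype did. By limma, none of the 9 tested genes passed within WT (4 at an unadjusted p under 0.05) or within the libraries labelled PARP3-/- (2 at an unadjusted p under 0.05), where 4.17% and 5.56% of all genes were called. In the pyridostatin difference averaged over genotypes, 3 of the 9 passed, CDH1 and TGM2 higher and CD44 lower. Of all genes, 13.9% were called there (7.71% higher and 6.24% lower).

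CDH1 was higher with pyridostatin by 2.38 FPKM in WT and by 1.03 FPKM in the libraries labelled PARP3-/-. All 3 pyridostatin libraries were above all 3 vehicle libraries in each genotype, and the averaged log2 difference was 0.17 (SE 0.04, adjusted p = 0.0233). TGM2 was likewise higher without overlap in each genotype, by 7.82% and 10.3% in mean FPKM, with an averaged log2 difference of 0.12 (SE 0.03, adjusted p = 0.0115). CD44 was lower without overlap in each genotype. Its mean fell by 14.8 FPKM in WT and fell by 17.3 FPKM in the libraries labelled PARP3-/-, and fell by 0.13 on the log2 scale on average (SE 0.03, adjusted p = 0.0181). After quantile normalization the CD44 difference was -0.09 with an adjusted p of 0.238, and the call of CD44 was also lost on leaving out WT pyridostatin replicate 1 (adjusted p = 0.0535). The call of CDH1 was lost without WT pyridostatin replicate 1 (adjusted p = 0.0608), without PARP3-/- vehicle replicate 2 (adjusted p = 0.0619) and without PARP3-/- pyridostatin replicate 3 (adjusted p = 0.0601). Without WT vehicle replicate 2, CD44 passed within WT (adjusted p = 0.0194) and within the libraries labelled PARP3-/- (adjusted p = 0.0424), and TGM2 passed within the latter (adjusted p = 0.0229).

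The other averaged differences with pyridostatin did not pass. They were -0.15 for EPCAM (adjusted p = 0.0994), -0.07 for CDH2 (adjusted p = 0.191), -0.05 for VIM, 0.11 for FN1, -0.013 for ZEB1 and 0.0038 for SNAI1 on the log2 scale. CDH2 passed without WT vehicle replicate 2 (-0.10, adjusted p = 0.00986) and after the median shift (-0.10, adjusted p = 0.0437). SNAI2 was at 0.131 ± 0.056 FPKM with vehicle and 0.0968 ± 0.0093 with pyridostatin in WT, and at 0.376 ± 0.10 and 0.671 ± 0.053 in the libraries labelled PARP3-/- (SD, n = 3 each). In the latter, the pyridostatin libraries were all above the vehicle libraries, which is the exact p of 0.1 that 3 against 3 libraries allow. Fitted without the filter, the SNAI2 difference with pyridostatin was 0.28 (adjusted p = 0.0203) in the libraries labelled PARP3-/- and -0.04 (adjusted p = 0.761) in WT. The interaction was 0.33 (95% interval 0.16 to 0.49, unadjusted p = 0.0014) and did not pass after adjustment over all genes of that fit (adjusted p = 0.773), so a difference between genotypes was not shown.

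**Figure D4:**
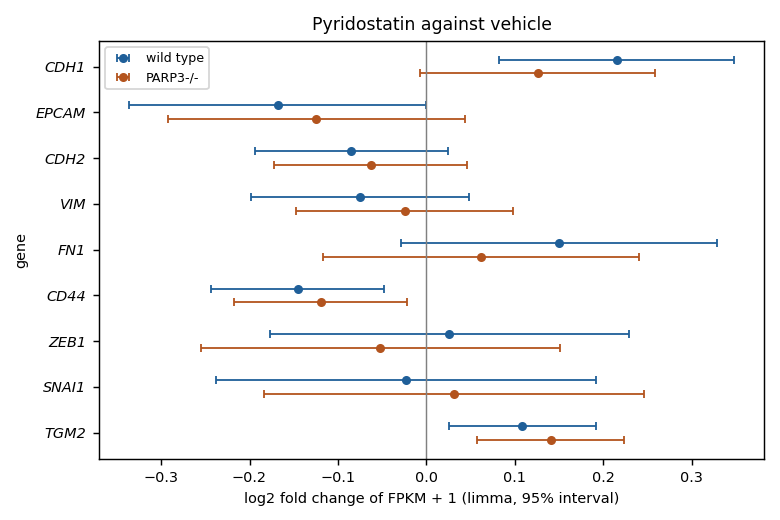
Log2 fold change of FPKM + 1 (limma, with 95% intervals) between pyridostatin and vehicle for the 9 tested genes, in WT and in the libraries labelled PARP3-/-. The intervals of CD44 lie left of 0 and those of TGM2 right of 0 in both genotypes, the intervals of CDH1 and EPCAM exclude 0 only in WT, the others include 0, and the genotypes overlap for every gene.

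The interaction of genotype and pyridostatin was called for none of the 9 genes by limma, with none at an unadjusted p under 0.05, and for 0% of all genes (521 of 11881 at an unadjusted p under 0.05). For CDH1 the interaction was -0.09 on the log2 scale, with a 95% interval from -0.28 to 0.10. For TGM2 it was 0.03, with an interval from -0.08 to 0.15. The intervals leave room for differences of the size of the pyridostatin effects themselves.

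Outside the 10 genes, transcripts that go with the same cell states were read from lists of 161 genes in the table, of which 97 were tested. In the averaged genotype difference, 48 of the 97 were called, or 49.5%, against 19.1% of all genes tested. The lists were chosen with earlier results of these data known, so such shares are descriptions and not an independent test. The calls were uneven across the lists. The called genes of the matrix lists all lay in a single direction, while those of the junction and keratin lists were split.

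Of 19 tested mesenchymal matrix and cytoskeleton genes, 15 rose and none fell in the libraries labelled PARP3-/-, with a median log2 difference of 0.39, against 0.01 for all genes tested. SPARC, a matrix glycoprotein, was at 0.851 ± 0.13 FPKM in WT and 4.34 ± 0.08 in the libraries labelled PARP3-/- with vehicle (SD, n = 3; averaged log2 difference 1.49, adjusted p = 4.26e-09). The collagen VI genes COL6A1 and COL6A2 rose from 9.32 to 21.1 and from 4.49 to 11.8 FPKM with vehicle (averaged log2 differences 1.12 and 1.25). In WT with vehicle and with pyridostatin, SPARC averaged 0.851 and 0.786 FPKM and COL1A1 averaged 0.694 and 0.870 FPKM. Both genes passed the filter only through the libraries labelled PARP3-/-, so their place among the genes that rose was partly set by the filter. The count of 15 was 18 without WT vehicle replicate 2 and ran from 11 to 18 over all settings. Settings with another filter tested another number of genes of the list. No gene of the list was called lower after the median shift or quantile normalization. Below the filter, CDH11, a mesenchymal cadherin named here after its values were seen, was at 0.635 ± 0.042 FPKM in WT and 0.180 ± 0.082 in the libraries labelled PARP3-/- with vehicle. Of the markers of fibroblasts, a cell type that makes such matrix, COL1A2, COL3A1, PDGFRA, PDGFRB and DCN were at 0.0710 FPKM or less in every library. The summed level of the 7 fibroblast markers was 0.693 to 1.10 FPKM in WT and 1.56 to 2.10 in the libraries labelled PARP3-/-, most of it COL1A1, which the matrix list also holds and which rose by a log2 difference of 0.41. LUM, the remaining fibroblast marker, was at 0.0634 ± 0.026 FPKM in WT and 0.322 ± 0.12 in the libraries labelled PARP3-/- with vehicle (SD, n = 3). The 4 endothelial markers were each at 0.375 FPKM or less in every library, with sums of 0.116 to 0.213 in WT and 0.245 to 0.375 in the libraries labelled PARP3-/-. The leukocyte markers PTPRC and CD3E were at or near 0. CD68 made up nearly all of the summed leukocyte level, which was 14.0 to 16.1 FPKM in WT and 18.7 to 21.1 in the libraries labelled PARP3-/-. The part of these markers in the results was not tested.

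Of 11 tested matrix remodelling enzymes and inhibitors, 7 rose and none fell (median 0.24). The urokinase gene PLAU rose from 125 to 184 FPKM with vehicle (averaged log2 difference 0.55) and LOXL2, a lysyl oxidase that cross-links collagen, from 68.6 to 96.7 (0.51). P4HA2, a collagen prolyl hydroxylase subunit, differed by 0.37 and the metalloproteinase inhibitor TIMP2 by 0.32. Of 11 fibronectin receptors and partners, 4 rose and none fell. They were ITGA5 (0.40), the adaptor PXN (0.31), the proteoglycan SDC4 (0.30) and the kinase-like ILK (0.18).

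Epithelial lists showed no common direction. Of 16 tight junction and polarity genes, 2 rose (F11R and CLDN3) and 3 fell (TJP3 and CLDN2 among them). After the median shift, and also after quantile normalization, 2 were called higher and 5 lower. Without WT vehicle replicate 2, the counts were 2 higher and 4 lower. TJP3 was at 3.14 ± 0.41 FPKM in WT and 1.82 ± 0.12 in the libraries labelled PARP3-/- with vehicle (SD, n = 3; averaged log2 difference -0.48). Of 11 adherens junction and desmosome genes, 2 rose (CTNNB1, which encodes beta-catenin, and JUP) and 3 fell (PKP3, PVRL1 and DSP). DSP is named here after its values were seen. Without WT vehicle replicate 2, the count of called adherens and desmosome genes was 8, with 2 higher and 6 lower. Of 8 keratins, 2 rose and 2 fell. KRT19 had the largest rise, from 90.5 ± 11 to 163 ± 6.8 FPKM with vehicle (averaged log2 difference 0.85, adjusted p = 6.58e-07), and KRT15 differed by 0.46. KRT4 and KRT18 differed by -0.51 and -0.24. KRT4 averaged 0.940 FPKM with vehicle and 0.894 with pyridostatin in the libraries labelled PARP3-/-, and passed the filter only through the WT libraries.

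Of 6 tested other transcription factors of the transition, TWIST1 rose (0.28, adjusted p = 0.00354) and FOXC1 fell (-0.57, adjusted p = 2.69e-06). ZEB2 was below the filter, at 0.265 FPKM in WT and 0.418 in the libraries labelled PARP3-/- with vehicle. Of 6 tested epithelial transcription and splicing factors, FOXA1 rose (0.31) and ELF3 fell by 0.11 on the log2 scale. The splicing regulators ESRP1 and ESRP2, and GRHL2, which maintain epithelial programs, were at 0.155 FPKM or less in every group. Among 9 hyaluronan genes, the synthase HAS3 (0.56) and the CD44-linking protein moesin (MSN, 0.11) rose, and the hyaluronidase HYAL1 (-0.85) and RDX (-0.23) fell. After quantile normalization, 2 hyaluronan genes in place of 4 were called.

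**Figure D5:**
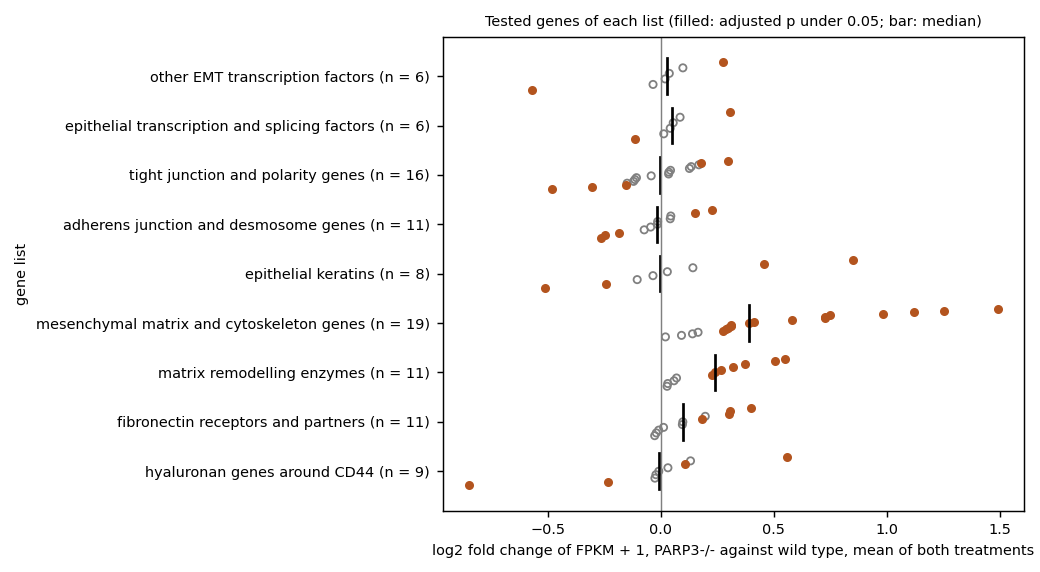
Averaged genotype log2 fold change of FPKM + 1 for the tested genes of 9 lists (filled points have an adjusted p under 0.05, bars are medians). The called genes of the matrix, remodelling and fibronectin receptor lists all lie right of 0, while those of the transcription factor, junction, keratin and hyaluronan lists lie on both sides.

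With pyridostatin, averaged over genotypes, 19 of the 97 tested genes of the lists passed (19.6%, against 13.9% of all genes). In the matrix list, 4 rose and 1 fell. Among those that rose were ACTA2, which encodes smooth muscle actin (log2 difference 0.77, adjusted p = 2.56e-05), CTGF (0.48) and CYR61 (0.18), and the gene that fell was the tropomyosin gene TPM1, at -0.09. ACTA2 and the TPM1, CTGF and CYR61 values, and those of HAS2 and HMMR, are named after they were seen. ACTA2 was at 8.45 ± 1.1 and 10.7 ± 0.70 FPKM with vehicle in WT and in the libraries labelled PARP3-/-, and at 15.3 ± 0.37 and 18.6 ± 1.6 with pyridostatin (SD, n = 3). Among the hyaluronan genes 3 fell and none rose, HAS2 (-0.18), HYAL1 (-0.20) and the hyaluronan-mediated motility receptor HMMR (-0.26). Of the keratins, KRT15 fell by 0.45 on the log2 scale (adjusted p = 2.41e-05), from 2.68 to 1.75 FPKM in WT and from 4.17 to 2.68 in the libraries labelled PARP3-/-. Of the epithelial transcription factors, KLF4 (0.15, adjusted p = 0.0098) and FOXA2 (0.28, adjusted p = 0.0183) rose. TWIST1 (0.22, adjusted p = 0.0169) and FOXC1 (0.14, adjusted p = 0.0427), which differed in opposite directions between genotypes, were both higher with pyridostatin. The count of 2 called genes in their list was 1 without WT vehicle replicate 2, 1 after the median shift and 0 after quantile normalization.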

How the data were processed

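RNA was isolated from WT and PARP3-/- A549 cells, and the authors made stranded mRNA libraries and sequenced single-end reads of 75 bases. The authors deposited FPKM values, 1 column per library, in a table that names Cufflinks. The submitters' processing notes also name bcl2fastq 2.16, STAR 2.5 and the builds hg19 and mm9, without their roles, so no gene coordinates of the files are given. Groups follow the sample labels. The study describes the libraries as biological triplicates, without saying what separates them, and p-values measure the spread between these samples.

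Tests covered the 11881 of 25365 names whose mean FPKM across libraries was 1 or more. They were made on log2(FPKM + 1) with limma 3.58.1 in R 4.3.3, in one model of 4 groups (eBayes with a trend, Benjamini-Hochberg over all genes tested, called at an adjusted p under 0.05), checked first on simulated data. Single genes were also compared by exact two-sided permutation tests. Approximate read numbers come from steps between low values and transcript lengths of GENCODE release 29, and cover counting only. From each gene list, at most 4 genes were named, those with the smallest adjusted p in the averaged genotype difference and then those called with pyridostatin. The genes and lists were chosen with earlier results of these data known. Alternatives were other pseudocounts, filters, scalings, fits and a replicate block, and leaving out each library. The same alternatives were added for the gene lists after the data were seen. A few genes that these rules would name are not reported here.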

Additional observations from a re-analysis of the deposited data

How the results depend on the processing

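The genotype calls of CDH1, EPCAM, CDH2, CD44 and TGM2 kept their direction and call under the alternatives run other than the fold thresholds, and so did VIM except with vehicle as given above. EPCAM was below the stricter filter (a mean of 5 FPKM) and was not tested there. At the main filter and pseudocount, the counts of called genes were 0 in each genotype comparison and in the averaged pyridostatin difference when an absolute log2 fold change above 0.58 or above 1 was also required. In WT, 1 gene passed for pyridostatin after the median shift (CD44), and leaving out each library in turn gave 0 to 2 (CDH2 and CD44 without WT vehicle replicate 2). In the libraries labelled PARP3-/-, 1 gene passed without the filter (SNAI2) and 1 after quantile normalization (TGM2), with 0 to 2 on leaving out each library. The averaged pyridostatin count ran from 1 (without WT pyridostatin replicate 1) to 4 (without WT vehicle replicate 2), and was 4 after the median shift. Of uncalled averaged pyridostatin differences, VIM turned to 0.015 after quantile normalization. SNAI1 turned to -0.0097 after quantile normalization and -0.023 after the median shift, and ran from -0.031 to 0.059 on leaving out each library, while ZEB1 ran from -0.071 to 0.041. The cause of these changes was not tested. Over all genes, the pyridostatin count in WT was 495, against 179 without WT pyridostatin replicate 1 and 65 with only its own libraries, and that in the libraries labelled PARP3-/- was 661, against 254 without PARP3-/- pyridostatin replicate 3 and 1554 without WT vehicle replicate 2. Libraries with the same replicate number deviated together little or not at all (correlations of deviations from -0.12 to 0.22). Deviations within groups of 3 cannot show whether same-numbered libraries were prepared together. With the replicate block, the counts of called genes were 6, 6 and 7 for genotype and 0, 0 and 3 for pyridostatin, as without it. Depth limits SNAI2, which rests on 44 reads or fewer per library.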
